A study of Mus musculus with 6 samples.

Results

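Pax7, Myf5, Myod1, Myf6, Mef2a, Mef2c, Six4, Eya1 and Sox6 encode transcription factors, and one of their cofactors, that set the identity of muscle cells and the type of muscle fibres. The 9 genes were taken by symbol from 19938 genes measured on microarrays of mouse soleus, a hindlimb muscle that bears weight during standing, and each was represented by 1 transcript cluster (the probes of one gene on the array). The arrays fell into 3 groups of 2: hindlimb suspension with electroacupuncture, hindlimb suspension alone, and control. In hindlimb suspension the hind legs are lifted off the ground, which unloads the soleus, and electroacupuncture passes a current between inserted needles. The animals of every group were male C57BL/6 mice aged 8 weeks, and the muscle was whole soleus, so the signals mix fibres, satellite cells and the other cells of the tissue. How long the suspension lasted and where the needles were placed are not given in the sources used here. The labels call the arrays replicates without saying whether each came from its own mouse, so the p-values below measure the spread between these arrays, which may be technical.

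Skeletal muscle is built and repaired through a cascade of such factors. PAX7 marks satellite cells, the stem cells that lie along the fibre, MYF5 and MYOD1 commit them to the muscle lineage, and myogenin (Myog) and MYF6 (MRF4) act in differentiating cells and in fibres. MEF2 proteins bind the promoters of contractile genes together with these factors, SIX4 and its family drive fast-fibre genes with their EYA cofactors, and SOX6 represses slow-fibre genes. MYOD1 binds DNA as a dimer with an E protein, and ID proteins take E proteins away from it. In unloaded soleus, fibres are known to become smaller and to shift from slow towards fast types.

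None of the 9 genes passed the threshold in any of the 3 comparisons, which was an adjusted p under 0.05 from limma, with Benjamini-Hochberg adjustment over all 19938 genes. Of all genes, 1.05% passed in suspension against control (0.537% higher, 0.512% lower), 1.03% in suspension with electroacupuncture against control (0.446% higher, 0.587% lower), and 0% in suspension with electroacupuncture against suspension, where 612 genes (3.07%) had an unadjusted p under 0.05. At that unadjusted level 2 of the 9 genes were higher in suspension than in control (Myod1 and Sox6), against 12.7% of all genes in either direction. In suspension with electroacupuncture against control it was 3 of the 9 (Myod1, Mef2a and Sox6), against 12.8%, and between suspension with electroacupuncture and suspension it was 0 of the 9. Both comparisons with control use the same 2 control arrays, so they are not independent of each other.

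By the order of the arrays, 4 of 9 (Pax7, Myod1, Mef2a and Sox6) had both suspension arrays above both control arrays, beside 21.3% of all genes, and 0 of 9 had both below, beside 18.5% (39.8% either way). In suspension with electroacupuncture against control it was 5 of 9, the same genes with Six4, beside 21.8%, and 0 of 9 below, beside 20% (41.8% either way). Between suspension with electroacupuncture and suspension it was 1 of 9 above (Six4), beside 15.4%, and 2 of 9 below (Myod1 and Eya1), beside 17.1% (32.6% either way). The median difference of the 9 was 0.16, 0.22 and −0.00 in suspension minus control, electroacupuncture minus control and electroacupuncture minus suspension, beside 0.01, 0.01 and −0.01 over all genes.

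All 9 genes had a mean log2 signal above 3.50, the 95th percentile of 1027 olfactory receptor genes, a background measure chosen after the values were seen. The 8 muscle-defining genes included the actin gene Acta1, between 13.25 and 13.53 on every array. The muscle creatine kinase gene Ckm lay between 12.87 and 13.39. The mean of the 8, given from the control mean, was −0.43 and −0.31 with electroacupuncture and −0.40 and −0.39 in suspension. In control it was −0.145 and 0.145. That mean includes the fast oxidative myosin gene Myh2, at −2.00 from control in suspension and −2.20 with electroacupuncture. The median differences of the 8 from control were −0.11 and −0.04, beside 0.01 over all genes in both comparisons. Both suspension arrays lay above both control arrays for 3 of the 8 and below them for 3, beside 21.3% and 18.5% of all genes. Signals of different genes come from different probes and are not set against each other here.

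**Figure D1:**
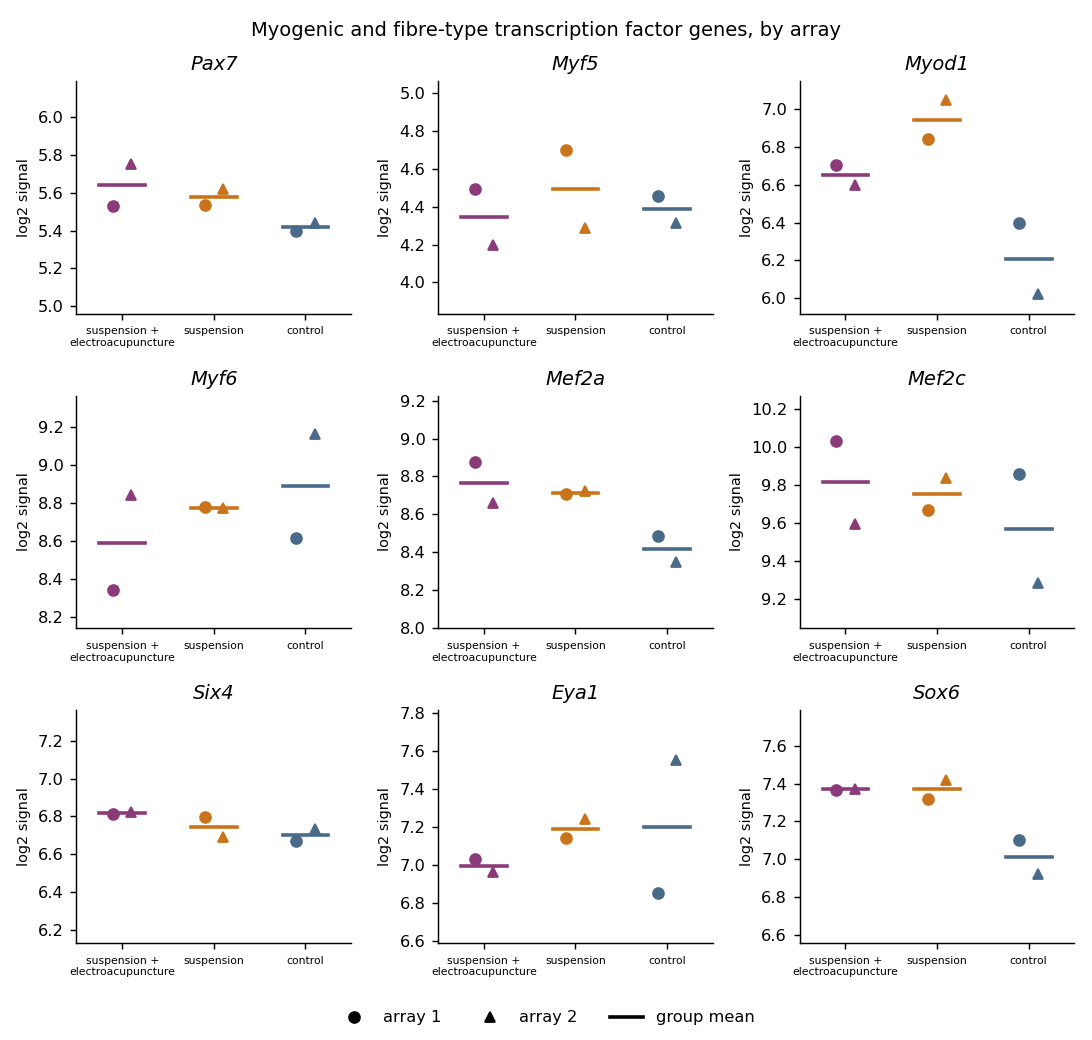
Log2 signal (vertical axis, the same span in every panel) of the 9 genes on each array, with suspension plus electroacupuncture, suspension and control from left to right, circles for array 1, triangles for array 2 and bars for the mean of the 2 arrays. Both control arrays lie below the other 4 arrays for Myod1, Mef2a, Sox6 and Pax7, while the control arrays lie far apart for Eya1, Mef2c and Myf6.

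**Figure D2:**
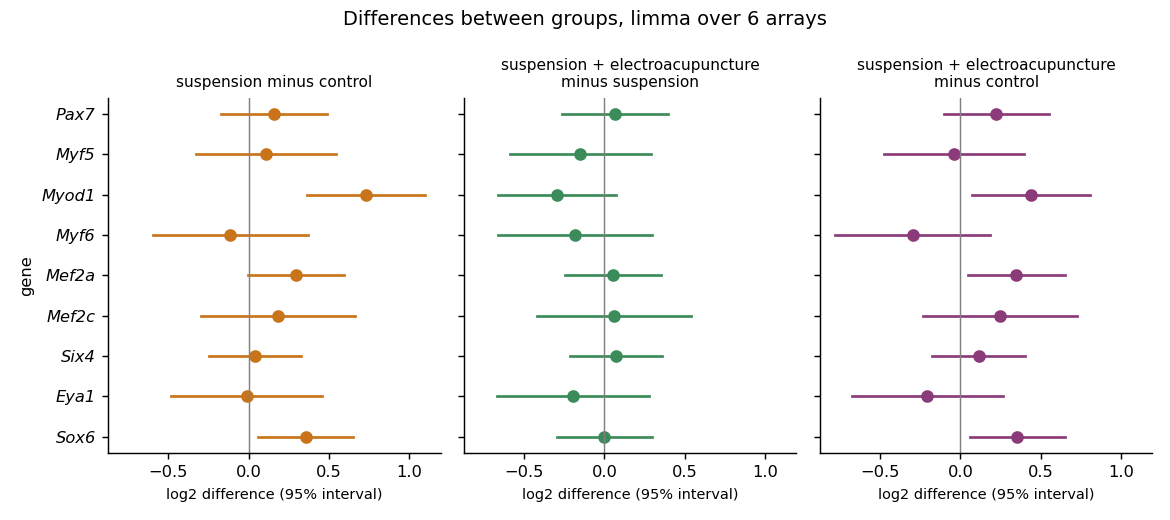
Difference in log2 signal (points) with its 95% interval from limma (lines) for the 9 genes: suspension minus control (left), suspension with electroacupuncture minus suspension (middle) and suspension with electroacupuncture minus control (right). The intervals of Myod1 and Sox6 lie above 0 in both comparisons with control, that of Mef2a in the right panel alone, and every interval in the middle panel spans 0.

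Myod1, the factor that commits cells to the muscle lineage and that is more abundant in fast than in slow muscle, had the largest difference of the 9 genes in suspension against control. Its log2 signal was 6.70 and 6.60 on the electroacupuncture arrays, 6.84 and 7.04 on the suspension arrays, and 6.40 and 6.02 on the control arrays. Both suspension arrays were the highest of the 6, both control arrays were the lowest, and no groups overlapped. Suspension minus control was 0.73 (SE 0.16, 95% interval 0.37 to 1.10), a signal 1.66 times that of control, with a limma adjusted p of 0.0856 that missed the threshold. Electroacupuncture minus suspension was −0.29 (95% interval −0.66 to 0.07, adjusted p 1.00), an interval that holds 0 as well as a fall nearly as large as the suspension difference. Electroacupuncture minus control was 0.44 (95% interval 0.07 to 0.81, adjusted p 0.291). Without control array 1, the higher of the control pair, suspension minus control was 0.92 and passed the threshold (limma adjusted p 0.0454), and over all 6 fits that leave out 1 array it lay between 0.55 and 0.92.

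Pax7 and Myf5, the satellite cell genes of the set, showed no difference past the threshold. Pax7 was 5.53 and 5.75 with electroacupuncture, 5.53 and 5.62 in suspension, and 5.40 and 5.44 in control. Both control arrays were the lowest of the 6, with small gaps between the groups, and suspension minus control was 0.16 (95% interval −0.17 to 0.49, limma adjusted p 0.737). Electroacupuncture minus control was 0.22 (95% interval −0.10 to 0.55, adjusted p 0.605). Myf5, which acts beside Myod1 in the commitment of satellite cells, was 4.49 and 4.20 with electroacupuncture, 4.70 and 4.29 in suspension, and 4.46 and 4.31 in control. The groups overlapped in each comparison, and suspension minus control was 0.11 (95% interval −0.33 to 0.55, limma adjusted p 0.877). In whole muscle, fewer cells of a type and less RNA per cell cannot be told apart.

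Of 18 other markers of satellite cells, 0 rose and 1 fell in suspension against control, beside 0.537% and 0.512% of all genes. Likewise 0 rose and 1 fell in suspension with electroacupuncture against control, beside 0.446% and 0.587%. The median differences of the 18 were −0.00 and −0.02, beside 0.01 over all genes in both comparisons. Nes, the intermediate filament nestin, was 5.57 and 4.87 with electroacupuncture, 4.71 and 4.79 in suspension, and 5.91 and 6.04 in control. The control arrays lay above the other 4, and the difference from control was −1.23 in suspension (limma adjusted p 0.0406) and −0.76 with electroacupuncture (adjusted p 0.168). The first call was lost without either suspension array or either control array (adjusted p 0.0817 to 0.183). Sdc4, a heparan sulphate proteoglycan at the satellite cell surface, was 6.42 and 6.12 with electroacupuncture, 6.74 and 6.84 in suspension, and 7.34 and 7.55 in control. Its control arrays were the highest too, and the difference from control was −1.18 with electroacupuncture (adjusted p 0.0134) and −0.65 in suspension (adjusted p 0.0947). The electroacupuncture call was lost without either electroacupuncture array (adjusted p 0.0796 and 0.148). Neither gene is particular to satellite cells, since nestin is also found in fibres at the nerve junction and in vessels. Of 12 measured cell cycle genes, 0 rose and 1 fell in suspension against control, beside 0.537% and 0.512% of all genes. The median difference of the 12 was 0.02. On suspension array 2, 6 of the 12 lay at or below 3.50, the background measure above, as did 5 on each other array. The gene that fell was Ccnd1 (cyclin D1), at 5.40 and 5.36 against 6.57 and 6.46 in control (−1.14, limma adjusted p 0.0345). Its difference was −0.91 with electroacupuncture (adjusted p 0.0732). The suspension call was lost without either suspension array or either control array, with differences of −1.195 to −1.079.

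Myf6, the family member most abundant in adult fibres, did not differ beyond the spread of the arrays. It was 8.34 and 8.84 with electroacupuncture, 8.78 and 8.77 in suspension, and 8.61 and 9.16 in control. The control arrays lay on either side of both suspension arrays, and suspension minus control was −0.11 (95% interval −0.60 to 0.37, limma adjusted p 0.885). Electroacupuncture minus control was −0.30 (95% interval −0.78 to 0.18, adjusted p 0.647).

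Myog, the factor that switches on terminal differentiation, was high on 1 array. Its log2 signal was 5.76 and 4.53 with electroacupuncture, 4.69 and 4.38 in suspension, and 4.49 and 4.37 in control. Electroacupuncture array 1 was above every other array, by 1.22 over its partner, and 20 of the 19938 genes had a larger gap between the same 2 arrays. Mymk, which encodes the fusion protein myomaker and is a direct target of MYOD1 and myogenin, was 6.65 and 5.01 with electroacupuncture, 5.13 and 5.14 in suspension, and 4.88 and 4.43 in control, with 5 genes showing a larger gap. Electroacupuncture minus suspension was 0.61 for Myog and 0.70 for Mymk (limma adjusted p 1.00 for each), and without electroacupuncture array 1 it was −0.00 and −0.12. Mymx, which encodes the partner of myomaker in fusion, was 4.81 and 4.79 with electroacupuncture, so array 1 did not stand apart for it. The 300 bases around the Myog start in RefSeq (GRCm38.p6, chr1:134289754-134290053, + strand, 250 before the start and 50 from it) are shown because they hold sites of the kinds that MYOD1 and SIX4 are known to bind, with capitals marking matches to E-box CANNTG at −138 to −133 and −12 to −7 and to MEF3 (TCAGGTT), the site of the SIX4 family, at −84 to −78.
Myog: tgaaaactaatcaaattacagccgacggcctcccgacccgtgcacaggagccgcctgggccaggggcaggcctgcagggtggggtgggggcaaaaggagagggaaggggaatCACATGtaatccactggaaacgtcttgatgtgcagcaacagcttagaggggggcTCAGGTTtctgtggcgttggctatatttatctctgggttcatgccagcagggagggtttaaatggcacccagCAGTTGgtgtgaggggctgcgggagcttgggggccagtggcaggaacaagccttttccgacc
The same search, on both strands, found an E-box in 72.3% and a MEF3 match in 4.07% of 32851 such windows, and a match is a description of the letters and not of binding. Counted from the start, there is no base 0.

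Of 15 measured genes of differentiation and fusion, 0 passed the threshold in any comparison. Their median difference was 0.37 in suspension with electroacupuncture against control and 0.23 against suspension, beside 0.01 and −0.01 over all genes, and 11 of 15 had both electroacupuncture arrays above both control arrays, beside 21.8% of all genes. The mean of the list, given from the control mean, was 0.62 and 0.25 with electroacupuncture, 0.17 and 0.10 in suspension, and −0.03 and 0.03 in control, highest on electroacupuncture array 1, where the mean of 12 macrophage markers was highest too (0.77, against 0.40 on electroacupuncture array 2). Without electroacupuncture array 1 the medians were 0.26 against control and −0.02 against suspension. Myh3, the embryonic myosin heavy chain that reappears in regenerating fibres, was 5.42 and 5.65 with electroacupuncture, 4.38 and 4.50 in suspension, and 4.65 and 4.79 in control. Both electroacupuncture arrays were above the other 4, by 1.10 over suspension (95% interval 0.74 to 1.45) with a limma adjusted p of 0.269. Actc1, the cardiac actin of developing and regenerating muscle, was 8.38 and 8.17 with electroacupuncture, 7.42 and 7.32 in suspension, and 7.86 and 8.12 in control. Its suspension arrays were the lowest, and electroacupuncture minus suspension was 0.90 (95% interval 0.57 to 1.23, adjusted p 0.367). Neither difference passed the threshold. Myh8, the neonatal myosin heavy chain, was at −0.12 in electroacupuncture minus suspension, a difference smaller than its limma standard error (0.20). Its suspension minus control difference was 0.48 (limma adjusted p 0.351), beside −0.28 for Myh3. Des, the fibre filament desmin, was 12.14 and 12.05 with electroacupuncture, 12.14 and 12.04 in suspension, and 11.50 and 11.78 in control, with a suspension minus control difference of 0.45 (adjusted p 0.214).

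**Figure D3:**
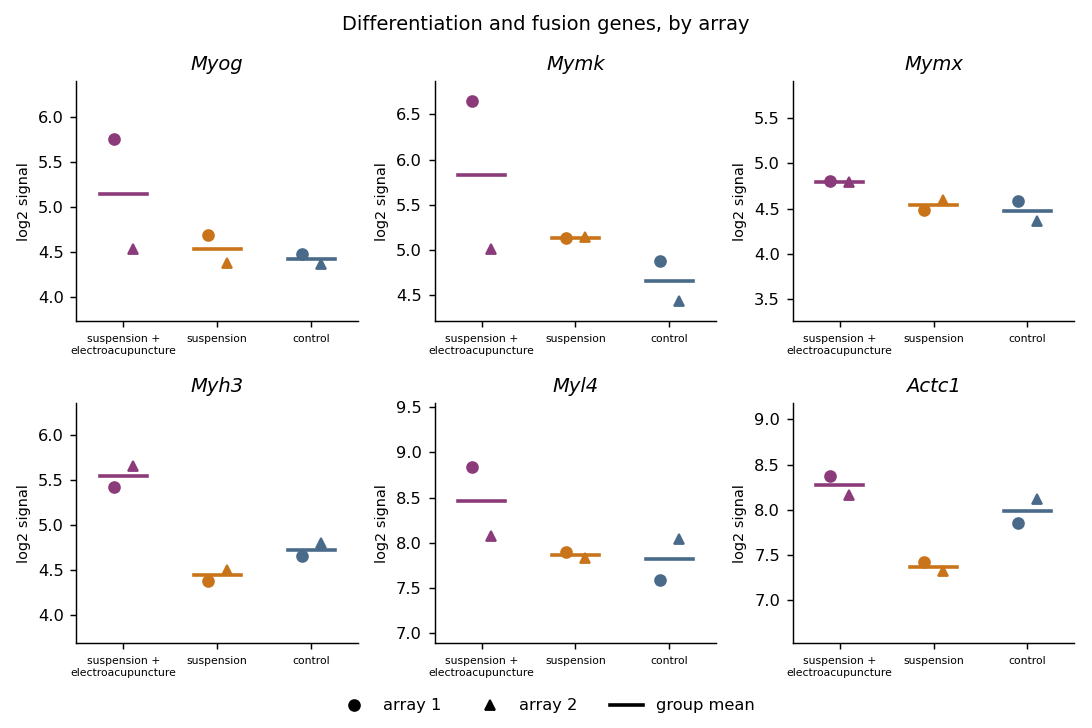
Log2 signal (vertical axis, the same span in every panel) of Myog, 2 fusion genes (Mymk and Mymx) and 3 contractile genes of developing muscle (Myh3, Myl4 and Actc1) on each array, with suspension plus electroacupuncture, suspension and control from left to right and bars for group means. Electroacupuncture array 1 (circle) stands above its partner for Myog, Mymk and Myl4, while both electroacupuncture arrays stand above suspension for Myh3 and Actc1.

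Mef2a and Mef2c encode MEF2 proteins, which bind AT-rich sites in the promoters of contractile and metabolic genes of fibres. Mef2a was 8.87 and 8.66 with electroacupuncture, 8.71 and 8.72 in suspension, and 8.49 and 8.35 in control. Both control arrays were the lowest of the 6, and the other 2 groups overlapped. Suspension minus control was 0.29 (95% interval −0.01 to 0.59, limma adjusted p 0.403), and electroacupuncture minus control was 0.35 (95% interval 0.05 to 0.65, adjusted p 0.307). Mef2c was 10.03 and 9.60 with electroacupuncture, 9.67 and 9.84 in suspension, and 9.86 and 9.28 in control, so that the groups overlapped in every comparison. Suspension minus control was 0.18 for Mef2c (95% interval −0.30 to 0.66, adjusted p 0.800). Mef2d, the third MEF2 gene of muscle, overlapped likewise, at 9.40 and 9.36, then 9.54 and 9.26, then 8.98 and 9.51 in the same order of groups, with a suspension minus control difference of 0.15 (adjusted p 0.806). The RefSeq window of Mef2a (GRCm38.p6, chr7:67372809-67373108, − strand) is shown because it holds a match to the MEF2 site, in capitals at −2 to 8, which 3.19% of all windows hold.
Mef2a: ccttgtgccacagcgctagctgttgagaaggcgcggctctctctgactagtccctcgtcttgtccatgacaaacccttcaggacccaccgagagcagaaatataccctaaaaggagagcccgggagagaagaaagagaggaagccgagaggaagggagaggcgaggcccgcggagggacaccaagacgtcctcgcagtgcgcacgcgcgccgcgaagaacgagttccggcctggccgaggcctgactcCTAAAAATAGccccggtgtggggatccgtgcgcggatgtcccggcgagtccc

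Of 18 cofactors and upstream kinases of MEF2, 0 passed in suspension against control. In suspension with electroacupuncture against control 1 rose, beside 0.446% of all genes. The median differences of the 18 were 0.22 and 0.13, beside 0.01 over all genes in both comparisons. At an unadjusted limma p under 0.05 the 18 gave 7 higher and 1 lower in suspension, beside 12.7% of all genes in either direction. With electroacupuncture they gave 5 higher and 0 lower, beside 12.8%. Mamstr, a MEF2 and SRF coactivator, was 6.17 and 6.36 with electroacupuncture, 6.38 and 5.97 in suspension, and 5.20 and 5.38 in control. Both control arrays were the lowest, with electroacupuncture minus control at 0.97 (limma adjusted p 0.0400) and suspension minus control at 0.89 (adjusted p 0.0581). The Mamstr call was lost without either electroacupuncture array or either control array (adjusted p 0.0549 to 0.312). Among the class II deacetylases that hold MEF2 inactive, Hdac4 was 0.27 and Hdac5 0.37 in suspension minus control (adjusted p 0.766 and 0.315).

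Six4 and Eya1 encode a homeodomain factor and its EYA cofactor, which together activate genes of fast glycolytic fibres. Six4 was 6.81 and 6.82 with electroacupuncture, 6.80 and 6.69 in suspension, and 6.67 and 6.74 in control. The groups overlapped between suspension and control, the 6 arrays spanned the narrowest range of the 9 genes, and suspension minus control was 0.04 (95% interval −0.25 to 0.33, limma adjusted p 0.938). Both electroacupuncture arrays were the highest of the 6, at 0.07 over suspension and 0.11 over control (adjusted p 1.00 and 0.808). Eya1 was 7.03 and 6.96 with electroacupuncture, 7.14 and 7.24 in suspension, and 6.85 and 7.55 in control. The control arrays were the lowest and the highest of the 6, and suspension minus control was −0.01 (95% interval −0.48 to 0.46, adjusted p 0.993). Both electroacupuncture arrays were below both suspension arrays, by a difference of −0.20 (95% interval −0.67 to 0.27, adjusted p 1.00).

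Another EYA gene did pass. Eya4 was 6.50 and 6.56 with electroacupuncture, 6.72 and 6.83 in suspension, and 5.97 and 5.56 in control, with both control arrays below the other 4. It was the single call among 20 measured genes of other myogenic factors in suspension against control, beside 0.537% of all genes higher. In suspension with electroacupuncture against control 0 of the 20 passed. Differences of the 20 ran from −1.02 to 1.01 in suspension (median 0.04) and from −1.32 to 0.76 with electroacupuncture. At an unadjusted limma p under 0.05, 2 were higher and 2 lower in each comparison, beside 12.7% and 12.8% of all genes in either direction. Eya4 rose by 1.01 in suspension against control (limma adjusted p 0.0275), beside 0.76 with electroacupuncture (adjusted p 0.0724). The call was lost without either suspension array or either electroacupuncture array (adjusted p 0.0784 to 0.160).

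Sox6, the repressor of slow-fibre genes, was higher than control in both suspended groups without passing the threshold. It was 7.37 and 7.37 with electroacupuncture, 7.32 and 7.42 in suspension, and 7.10 and 6.93 in control. Both control arrays were the lowest of the 6, while the electroacupuncture pair lay between the suspension pair. Suspension minus control was 0.36 (95% interval 0.06 to 0.65, limma adjusted p 0.292), a signal 1.28 times that of control, and electroacupuncture minus control was 0.35 (95% interval 0.06 to 0.65, adjusted p 0.291). Electroacupuncture minus suspension was −0.00 (95% interval −0.30 to 0.30). The first of 6 RefSeq starts of Sox6 (GRCm38.p6, chr7:116038695-116038994, − strand) is shown for its E-boxes, at −157 to −152 and −68 to −63, the sites of the MYOD1 family, with a TEAD-type M-CAT match (CATTCC, 14.7% of all windows) at −107 to −102, all in capitals. None of these matches overlap each other.
Sox6: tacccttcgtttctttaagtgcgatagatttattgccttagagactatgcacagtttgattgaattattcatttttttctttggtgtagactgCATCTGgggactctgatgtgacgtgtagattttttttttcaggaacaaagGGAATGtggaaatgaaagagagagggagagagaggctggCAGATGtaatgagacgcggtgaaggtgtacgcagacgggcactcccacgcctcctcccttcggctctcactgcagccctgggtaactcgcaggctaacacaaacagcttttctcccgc
Windows were found for 6 of the 9 genes, the others being Myod1, Myf6 and Eya1. Which of the Sox6 starts soleus uses was not tested.

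Contractile genes downstream of SOX6 and of SIX4 and its family moved in part. Of 10 slow-fibre genes that SOX6 is known to repress, 1 fell and 0 rose in suspension against control, beside 0.512% and 0.537% of all genes. In suspension with electroacupuncture against control 2 fell and 0 rose, beside 0.587% and 0.446%. The list medians were −0.54 and −0.26, beside 0.01 over all genes in both. At an unadjusted limma p under 0.05 the list gave 6 lower and 0 higher in suspension, and 3 lower and 0 higher with electroacupuncture. Both arrays lay below both control arrays for 8 of the 10 in suspension and 5 with electroacupuncture, beside 18.5% and 20% of all genes. They lay above for 1 and 0. Casq2, a calcium store protein of the slow-fibre reticulum, was 6.95 and 6.78 with electroacupuncture, 6.95 and 6.95 in suspension, and 8.27 and 8.16 in control. It fell by 1.27 in suspension (limma adjusted p 0.00618, and 0.0620 without suspension array 1) and by 1.35 with electroacupuncture (0.00764, and 0.0657 and 0.0865 without either electroacupuncture array). Myl3, the slow essential light chain, was 11.19 and 11.64 with electroacupuncture, against 12.30 and 12.53 in control, and fell by 1.00 (adjusted p 0.0377), beside a difference of −0.78 in suspension (adjusted p 0.0873). The electroacupuncture call was lost in 5 of the 6 fits without 1 array, all but the one without control array 1 (adjusted p 0.0631 to 0.332). Myh7, the slow myosin heavy chain, was 11.68 and 11.68 in suspension, against 11.62 and 12.02 in control (−0.14, adjusted p 0.815).

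Of 13 fast-fibre genes under the SIX4 family, 4 rose and 0 fell in suspension against control, beside 0.537% and 0.512% of all genes. Likewise 4 rose and 0 fell in suspension with electroacupuncture against control, beside 0.446% and 0.587%. The 4 were Actn3, Pvalb, Myh4 and Myh1 in each comparison, and the list medians were 0.45 and 0.39, beside 0.01 over all genes in both. At an unadjusted limma p under 0.05 the list gave 9 higher and 1 lower in suspension, and 8 higher and 1 lower with electroacupuncture. The fast oxidative myosin gene Myh2, counted among the muscle-defining genes instead, was −2.00 and −2.20 from control (limma adjusted p 0.0210 and 0.0142). Actn3, the alpha-actinin of fast fibres, was 11.82 and 11.80 with electroacupuncture, 11.96 and 12.02 in suspension, and 10.13 and 9.30 in control. Both control arrays were far below the other 4, and suspension minus control was 2.28 (limma adjusted p 0.00618, and 0.0620 without suspension array 1). Electroacupuncture minus control was 2.10 (adjusted p 0.00871, and 0.0885 and 0.0865 without either electroacupuncture array). Myh4, the fastest myosin heavy chain, was 12.27 and 12.18 in suspension, against 10.76 and 9.46 in control (2.12, adjusted p 0.0269). Its call and that of Myh1 (0.86, adjusted p 0.0405) were lost without either suspension array or either electroacupuncture array, and that of Myh1 also without control array 2 (adjusted p 0.0546 to 0.304 over both genes). Pvalb, parvalbumin, was 1.50 higher in suspension (adjusted p 0.0145, and 0.117 and 0.0829 without either suspension array). With electroacupuncture the differences from control were 1.32 for Pvalb, 2.08 for Myh4 and 0.87 for Myh1 (adjusted p 0.0212, 0.0286 and 0.0384), and each lost its call without either electroacupuncture array and without suspension array 2, Myh4 and Myh1 also without suspension array 1, and Myh1 also without control array 2 (adjusted p 0.0502 to 0.363). None of these slow and fast genes passed between suspension with electroacupuncture and suspension, where the medians were 0.15 and −0.04.

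**Figure D4:**
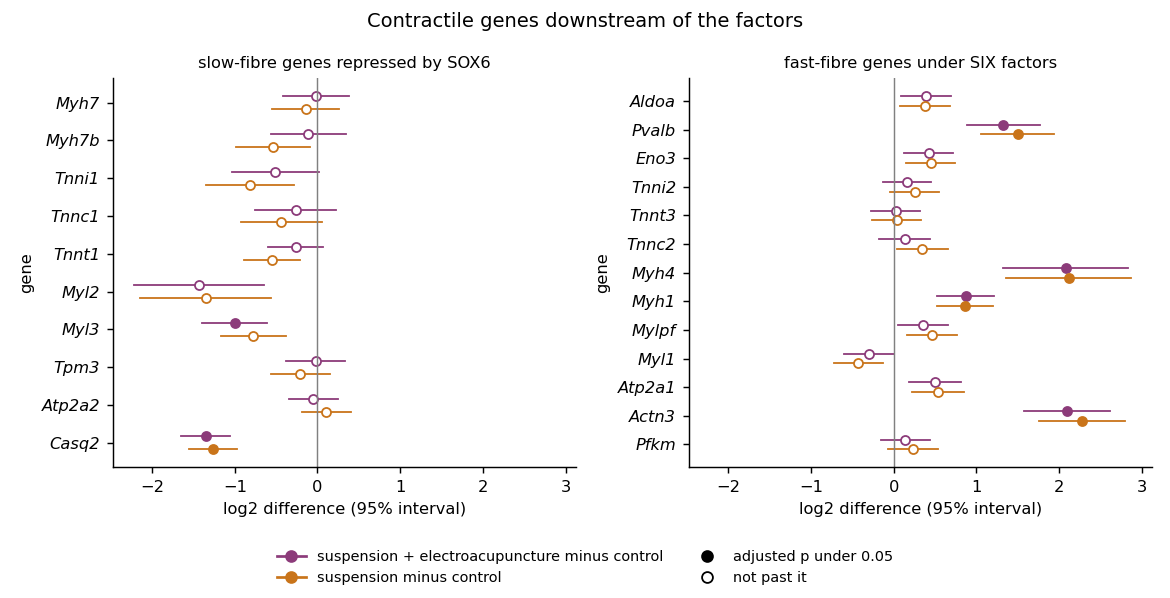
Difference in log2 signal from control (points, filled where the adjusted p was under 0.05) with its 95% interval from limma (lines) for suspension with electroacupuncture (upper of each pair) and suspension (lower), for slow-fibre genes repressed by SOX6 (left) and fast-fibre genes under the SIX4 family (right). Casq2 lies at −1.35 and −1.27 in the pair, and Actn3 at 2.10 and 2.28.

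Other regulators of fibre type gave 2 rises and 0 falls among 17 measured genes in suspension against control, beside 0.537% and 0.512% of all genes. In suspension with electroacupuncture against control it was 1 rise and 0 falls, beside 0.446% and 0.587%. The lowest differences, −1.02 in suspension and −1.32 with electroacupuncture, were also the lowest of the other myogenic factor genes. Differences of the 17 ran from −1.02 to 1.17 in suspension (median 0.13) and from −1.32 to 1.03 with electroacupuncture (median 0.05). At an unadjusted limma p under 0.05, 5 were higher and 2 lower in suspension, and 4 higher and 3 lower with electroacupuncture. All genes gave 12.7% and 12.8% in either direction. Nfatc2, a calcineurin-dependent factor of fibre type, was 6.98 and 7.01 with electroacupuncture, 7.18 and 7.10 in suspension, and 5.96 and 5.97 in control. The arrays of each pair lay close together and no groups overlapped, and Nfatc2 rose by 1.17 in suspension (limma adjusted p 0.00674, and 0.0623 without suspension array 1) and by 1.03 with electroacupuncture (0.0111, and 0.141 and 0.132 without either electroacupuncture array). Rbfox1, a splicing factor of adult muscle, was 8.64 and 8.74 in suspension, against 8.00 and 7.60 in control, and rose by 0.89 (adjusted p 0.0438), beside a difference of 0.84 with electroacupuncture (adjusted p 0.0538). Its call held only without control array 1 among the 6 fits without 1 array (adjusted p 0.0664 to 0.226 in the others), and it missed the threshold after a second quantile normalization (0.0528) and after cyclic loess (0.0552).

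The E proteins that pair with MYOD1 showed no difference past the threshold, with suspension minus control at 0.08 for Tcf3, 0.25 for Tcf4 and 0.17 for Tcf12 (limma adjusted p 0.871, 0.523 and 0.719). Among 20 genes of E proteins and inhibitors of the MYOD1 family, 0 rose and 1 fell in suspension against control, beside 0.537% and 0.512% of all genes. With electroacupuncture against control 0 rose and 2 fell, beside 0.446% and 0.587%. The list medians were −0.03 and −0.09, beside 0.01 over all genes in both. Id1 was 5.36 and 5.29 with electroacupuncture, 5.67 and 5.57 in suspension, and 6.57 and 7.09 in control. Both control arrays were the highest of the 6, and Id1 fell by 1.21 in suspension (adjusted p 0.0228) and by 1.51 with electroacupuncture (adjusted p 0.0111). The first call was lost without either suspension array or either electroacupuncture array (adjusted p 0.0676 to 0.129), and the second without either electroacupuncture array (0.102 and 0.113). Id3 was 5.81 and 5.50 with electroacupuncture, 5.84 and 5.68 in suspension, and 6.52 and 6.49 in control. It fell by 0.85 with electroacupuncture (adjusted p 0.0415), a call lost in each of the 6 fits without 1 array (0.0705 to 0.339), and its suspension minus control difference was −0.74 (0.0712). Id2 was −0.19 and Id4 −0.13 in suspension minus control (adjusted p 0.842 and 0.817).

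**Figure D5:**
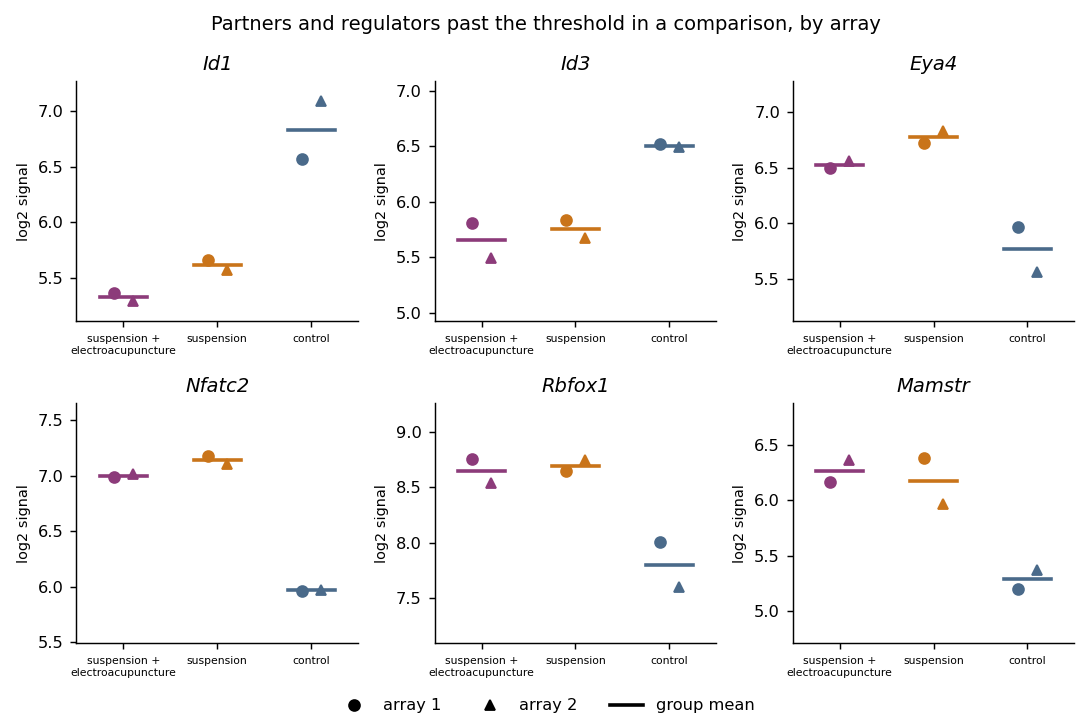
Log2 signal (vertical axis, the same span in every panel) of 6 partners and regulators that passed the threshold in a comparison with control, on each array, with suspension plus electroacupuncture, suspension and control from left to right, circles for array 1, triangles for array 2 and bars for group means. Both control arrays lie above the other 4 for Id1 and Id3 and below them for Eya4, Nfatc2, Rbfox1 and Mamstr.

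The 3 genes whose signals followed Myod1 most closely over the 6 arrays, among 4526 genes with a mean signal at or above the median gene and a span of at least 0.5, were Herc2, Cyp39a1 and Calcoco1, with Pearson correlations of 0.990, 0.989 and 0.986. The 6 arrays share 3 groups and their gaps, and 117 of those genes had a correlation above 0.9. Herc2 itself was 6.50 and 6.57 in suspension, against 6.23 and 5.96 in control (0.44, limma adjusted p 0.225).

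Genes of other cell types also differed between arrays. The mean of 8 measured adipocyte markers, given from the control mean, was −0.21 and −0.33 with electroacupuncture, −0.61 and −0.73 in suspension, and −0.74 and 0.74 in control. All 8 were higher on control array 2 than on control array 1, among them Adipoq (adiponectin), at 5.10 on control array 1 and 8.09 on control array 2. The mean of 12 macrophage markers was 0.77 and 0.40 with electroacupuncture, 0.56 and −0.17 in suspension, and −0.12 and 0.12 in control, highest on electroacupuncture array 1, the array on which Myog, Mymk and the mean of the differentiation and fusion genes were high. That of 12 fibroblast and tendon markers was −0.57 and −0.61 with electroacupuncture, −0.19 and −1.18 in suspension, and −0.05 and 0.05 in control. The mean of 10 endothelial markers was −0.31 and −0.36 with electroacupuncture, 0.01 and −0.16 in suspension, and −0.10 and 0.10 in control. It was lowest on both electroacupuncture arrays, and 7 of the 10 had both electroacupuncture arrays below both suspension arrays, beside 17.1% of all genes. At an unadjusted p under 0.05, 3 of the 10 were lower with electroacupuncture than in suspension and 0 higher, beside 3.07% of all genes in either direction. The means of 7 vascular smooth muscle and 5 measured Schwann cell markers lay between −0.28 and 0.16 on all 6 arrays.

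In these lists 4 genes passed the threshold in a comparison, all lower than control. In suspension they were Myh2, a fast oxidative myosin heavy chain kept among 8 muscle-defining genes (−2.00, limma adjusted p 0.0210), and Tnmd, the tendon protein tenomodulin (−1.94, adjusted p 0.00307). With electroacupuncture they were Myh2 (−2.20), Tnmd (−1.20), the tendon factor Scx (−0.96) and the endothelial receptor Kdr (−1.28), with adjusted p 0.0142, 0.0111, 0.0334 and 0.0135. The Myh2 call in suspension was lost without either suspension array or control array 2 (adjusted p 0.0563 to 0.127), and its call with electroacupuncture without electroacupuncture array 2 (0.0651). The electroacupuncture calls of Tnmd and Kdr were lost without either electroacupuncture array (0.0708 to 0.143), and that of Scx without any array but control array 1 (0.0505 to 0.265).

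The gap between arrays of a group (array 1 minus array 2) had an SD over all genes of 0.251 with electroacupuncture, 0.293 in suspension and 0.357 in control. Between the control arrays it was −0.70 for Eya1, −0.55 for Myf6, 0.57 for Mef2c and 0.38 for Myod1. The part of other cell types and of these gaps in the values above was not tested.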

How the data were processed

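Soleus RNA was measured on 6 Affymetrix Mouse Gene 1.0 ST arrays, 2 per group. Per the submitters' processing notes, the authors used RMA in Affymetrix Expression Console. They deposited one log2 signal per transcript cluster (35556 in all), which was used unchanged. No depth applies to arrays, and their number limits the precision. Clusters with 1 gene symbol (21789) were kept, and of several clusters of a gene the one with the highest mean signal, which left 19938 genes. limma 3.58.1 (R 4.3.3) fitted one model to the 6 arrays, with a trended variance prior (5.88 prior beside 3 residual degrees of freedom), after a test on simulated data. P-values were adjusted by Benjamini-Hochberg over all genes. Differences are log2, with limma's standard error or 95% interval.

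The 9 genes, the 9 lists of pathway genes and targets and the 7 cell type lists were chosen with earlier results of these data known. From each pathway list the text names the genes past the threshold (at most 4), or otherwise the 2 with the smallest p in suspension against control, and always Myog and Mef2d. The other genes named beside them (Mymk, Mymx, Myh3, Myh8, Myl4, Hdac4, Hdac5, Myh7, Tcf3, Tcf4, Tcf12, Id2, Id4 and the markers) were chosen after their values were seen. Alternatives comprised the variance prior, array weights, a filter at the median signal, renormalization, averaging of clusters, fitting compared groups alone, the replicate number as a block, and leaving out each array.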

Additional observations from a re-analysis of the deposited data

How the results depend on the processing

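Suspension against control called 209 genes, and 80 with no trend in the variance prior, 130 with array weights, 68 when fitted on the compared groups alone, 102 with the replicate number as a block, 482 at an adjusted p under 0.10, and 16 to 301 without 1 array. Suspension with electroacupuncture against control called 206, and 101 with no trend, 129 on the compared groups alone, 127 with the block, 312 after a second quantile normalization, 399 at 0.10, and 2 to 299 without 1 array. Suspension with electroacupuncture against suspension called 0, and 1 with a robust prior, 4 with array weights, 3 on the compared groups alone, 1 at 0.10, and 0 to 3 without 1 array. Of the 9 genes, 1 (Myod1) passed in suspension against control at 0.10, and 0 to 1 without 1 array. The cause of these shifts was not tested, although a fit without 1 array or 1 group has fewer arrays. Of the 22 calls named for genes of the pathway lists, 11 were lost with no trend in the variance prior, 9 on the compared groups alone, 7 with array weights, 7 with the block, 2 with a robust prior, 1 after a second quantile normalization and 1 after cyclic loess.

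Electroacupuncture minus suspension turned to 0.018 for Sox6 after a second quantile normalization and 0.023 after cyclic loess. Without 1 array, suspension minus control ranged over 0 for Eya1 (−0.36 to 0.34), Mef2c (−0.10 to 0.47), Myf5 (−0.10 to 0.32), Myf6 (−0.39 to 0.16) and Six4 (−0.011 to 0.094). Electroacupuncture minus control did so for Eya1 (−0.56 to 0.14), Mef2c (−0.042 to 0.53) and Myf5 (−0.19 to 0.11), and electroacupuncture minus suspension for Mef2a (−0.053 to 0.16), Mef2c (−0.16 to 0.28), Myf5 (−0.36 to 0.056), Myf6 (−0.43 to 0.066), Pax7 (−0.045 to 0.18) and Sox6 (−0.051 to 0.049). Without control array 1, 86 genes were called higher and 142 lower in suspension against control, and without control array 2 it was 207 and 94. Suspension minus control of Myod1 stayed above 0 in each of these fits, with a limma adjusted p of 0.0454 to 0.356. Myf5 fell below the median signal and has no value under that filter. Arrays with the same replicate number did not deviate together (correlations over genes of −0.16, −0.02 and 0.02 for the 3 pairs of groups), so the block is given only here.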
